A study of Mus musculus with 12 samples.

Results

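BCR-ABL1 is the tyrosine kinase that drives chronic myeloid leukemia (CML), and the 10 mouse genes described here are its endogenous counterparts and the adaptors it works through: Abl1, Abl2, Bcr, Grb2, Shc1, Gab2, Sos1, Crk, Crkl and Cbl. They were picked by name, with earlier results of these data known, and no measured value entered the rule itself. They were 10 of the 46102 genes listed after numbered copies of a gene were summed. None of the 10 had such a copy, and all 10 were among the 10072 genes that reached 1 RPKM (reads per kb of transcript, scaled to sequencing depth) in at least 3 libraries and were tested.

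RNA was sequenced from 100 sorted cells per library, with 3 libraries in each of 4 groups. All sorted cells were BCR-ABL1+ CD27+ KSL cells (c-Kit+, Sca1+, lineage-negative) from the bone marrow and spleen of C57BL/6 mice with a CML-like disease. DP (vehicle) and IMDP (imatinib) were the G0M+ cells, labelled CML stem cells, and SP (vehicle) and IMSP (imatinib) were the G0M- cells, labelled CML progenitor cells. Imatinib, a kinase inhibitor that blocks ABL1, was given at 40 mg/kg once daily from day 10 after transplantation. In every group the leukemic cells came from Vav1-Cre; Rosa26 G0M donors treated with 5FU, whose marrow was infected with a retrovirus carrying human BCR-ABL1 and GFP, and they grew in lethally irradiated recipients beside normal helper marrow. G0M is a fluorescent fusion to a p27 mutant that accumulates in quiescent cells, and Vav1-Cre switches it on across blood cells. The fusion gene was thus driven by a viral promoter and not by the Bcr locus. The mice were female and young adult, with a single range of ages given for all experiments and none for each group. The number of mice behind a library is not given in the sources used here. P-values therefore measure the spread between these libraries, which may in part be technical.

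In background, ABL1 and ABL2 are tyrosine kinases that are normally held inactive, and fusion to the front of BCR keeps ABL1 active through a coiled coil that joins fusion molecules to each other. A phosphorylated tyrosine in the BCR portion recruits GRB2, which brings GAB2 and the RAS exchange factor SOS1. SHC1 offers GRB2 another docking route, CRK and its close relative CRKL bind the ABL1 tail, and CBL is a ubiquitin ligase that marks active kinases for removal. These steps act on protein, whereas the values here are RNA levels.

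The mouse sequences below show the GRB2 docking site of Bcr and the exons at which CML-type fusions usually join, and they are printed from the GENCODE M21 transcripts (GRCm38, plus strand, 5′ to 3′). In the stretch of Bcr exon 1, at chr10:75061527-75061589, capitals mark codon 178, the tyrosine of the GRB2 docking motif. In Bcr exons 13 (chr10:75159786-75159890) and 14 (chr10:75160330-75160404) of the 23-exon transcript, capitals mark the last 12 bases, after either of which CML-type fusions usually leave BCR. In Abl1 exon 2 (chr2:31778334-31778507), shared by the 11-exon transcripts, capitals mark the first 12 bases, where such fusions enter ABL1.
Bcr exon 1, tyrosine codon: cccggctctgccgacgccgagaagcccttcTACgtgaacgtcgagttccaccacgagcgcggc
Bcr exon 13: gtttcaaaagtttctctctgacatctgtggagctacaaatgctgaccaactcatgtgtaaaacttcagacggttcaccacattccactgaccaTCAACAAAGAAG
Bcr exon 14: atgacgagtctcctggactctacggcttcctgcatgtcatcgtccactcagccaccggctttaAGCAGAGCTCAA
Abl1 exon 2: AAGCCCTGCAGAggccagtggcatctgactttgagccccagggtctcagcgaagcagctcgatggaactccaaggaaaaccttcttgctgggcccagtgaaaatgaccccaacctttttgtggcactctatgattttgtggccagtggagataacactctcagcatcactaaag

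The joint of the human cDNA used in this model is not given in the sources used here. Coding sequence up to the end of exon 13 or 14 makes up 39.1% or 40.1% of the 6922-base length that the deposited values use for Bcr, and coding sequence from exon 2 onward makes up 38.1% of the 8643 bases used for Abl1. The deposited values give a single level per gene, so reads of the human fusion and of the mouse genes could not be told apart, and how many of the former mapped here was not measured.

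The population labels were checked by Mki67, a proliferation marker that was not sorted on and that was lower in G0M+ cells. It stood at 14.7 ± 5.70 RPKM in DP and 54.2 ± 3.42 in SP, and at 8.16 ± 1.67 in IMDP and 61.1 ± 8.39 in IMSP (SD, n = 3 each). Of the sort markers, Ly6a (which encodes Sca1) was higher in G0M+ cells (log2 fold change 1.42 averaged over treatments, limma adjusted p = 0.00544), with means of 11.7 RPKM in DP against 4.55 in SP and of 19.0 in IMDP against 6.63 in IMSP. Cdkn1b, which encodes p27, had means of 8.02 RPKM in DP against 8.01 in SP and of 6.66 in IMDP against 7.55 in IMSP, and its fitted difference averaged over treatments was -0.08 (limma adjusted p = 0.730). Kit lay between 16.8 and 39.8 RPKM and Cd27 between 12.2 and 21.4 RPKM over the 12 libraries. Total reads behind the RPKM lay between 11.4 and 20.6 M per library. The share of them that fell on listed genes was 25.9% to 31.1% in IMDP and 32.6% to 37.1% in IMSP. It was 30.8% to 33.6% in DP and 32.1% to 34.1% in SP. The median of all genes tested was shifted by -0.25 (log2) in IMDP against IMSP, by -0.17 in IMDP against DP and by -0.02 in DP against SP. The cause of this shift was not tested. Imatinib libraries were numbered 1 to 6 and vehicle libraries 7 to 12, so treatment and library number cannot be told apart.

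The 10 genes were expressed at moderate levels in every library, between 3.08 and 19.3 RPKM, on 315 to 3230 reads. Their mean levels placed them between the 48.8th and the 87.1st percentile of the genes tested. Averaged over the 12 libraries and given per length, Cbl (15.5 RPKM) and Grb2 (15.0) were highest, followed by Abl1 (12.7), Bcr (9.95), Shc1 (9.38), Crkl (7.58), Abl2 (4.96), Gab2 (4.93), Crk (4.70) and Sos1 (4.47). Abl1 was above Bcr and Crkl above Abl2 in 12 of 12 libraries, and Shc1 was above Crkl in 11 of 12. The other neighbours in this order changed places: Cbl was above Grb2 in 6 of 12 libraries, Grb2 above Abl1 in 9, Bcr above Shc1 in 6, Abl2 above Gab2 in 7, Gab2 above Crk in 7 and Crk above Sos1 in 9. By group means, Abl1 (15.0 RPKM) was highest in DP, above Cbl (14.1) and Grb2 (13.7). Shc1 was above Bcr in both G0M- groups and below it in both G0M+ groups.

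**Figure D1:**
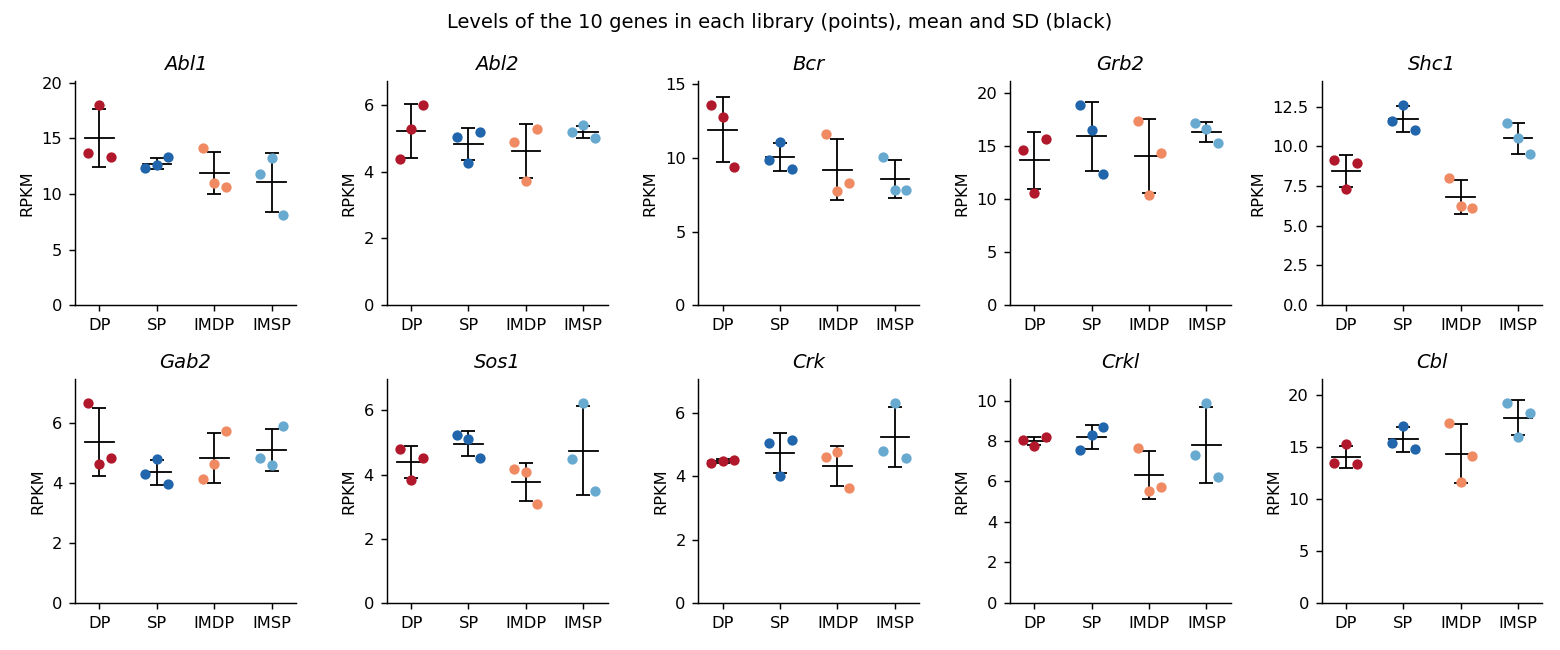
RPKM (vertical axes, from 0) of the 10 genes in the 3 libraries of DP, SP, IMDP and IMSP, with the group mean and SD in black. The Shc1 points of both G0M+ groups lie below those of both G0M- groups, and for most other genes the groups overlap.

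Shc1, the adaptor that links phosphotyrosines to GRB2, was the only one of the 10 genes that passed the test with RPKM as deposited, and it was lower in G0M+ cells. Its levels were 9.12, 7.30 and 8.97 RPKM in DP against 11.6, 12.6 and 11.0 in SP, and 8.03, 6.27 and 6.11 in IMDP against 11.5, 10.5 and 9.50 in IMSP. Every G0M+ library was below every G0M- library, and how many of all genes did so is not given here. Averaged over treatments, Shc1 was 1.46-fold lower in G0M+ cells (log2 fold change -0.55, SE 0.11, limma with Benjamini-Hochberg adjusted p = 0.00438), and -0.41 when the median over all genes is taken off. It was 1.54-fold lower in IMDP than in IMSP (log2 fold change -0.63, SE 0.15, limma adjusted p = 0.0126). Between DP and SP the fitted difference was -0.47 (SE 0.15, limma adjusted p = 0.175) although the libraries did not overlap. With a block for neighbouring library numbers, which the deviations of DP and SP libraries share, this difference passed (limma adjusted p = 0.0290). The population difference was not shown to depend on imatinib (interaction -0.16, SE 0.21, limma adjusted p = 0.816).

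With RPKM as deposited, more genes passed as lower than as higher in G0M+ cells over the whole table. Of all genes tested, 26.3% passed in G0M+ against G0M- cells and 21% passed as lower, against 1 of the 10 genes here. In IMDP against IMSP 25.6% passed and 23.3% passed as lower, again against 1 of 10. Without IMSP replicate 1 the genes called in IMDP against IMSP went from 2581 to 902. In DP against SP 2.26% of genes passed, and 0 of the 10 did without that block. There the unadjusted p was under 0.05 for 1 of them (Shc1) and for 13.2% of all genes, and limma-voom on recovered reads also called 0. The median of the 10 fold changes was -0.16 in G0M+ against G0M- cells, beside -0.13 for all genes, and -0.26 in IMDP against IMSP, beside -0.25.

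The fall of Shc1 averaged over treatments held when libraries were scaled to the same median (-0.39, limma adjusted p = 0.00621) or to the same sum of RPKM (-0.30, adjusted p = 0.0210). The call within imatinib did not hold. In limma it was -0.35 (adjusted p = 0.0519) with the same median and -0.21 (adjusted p = 0.210) with the same sum. Without IMSP replicate 1 it was -0.56 (limma adjusted p = 0.0624).

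**Figure D2:**
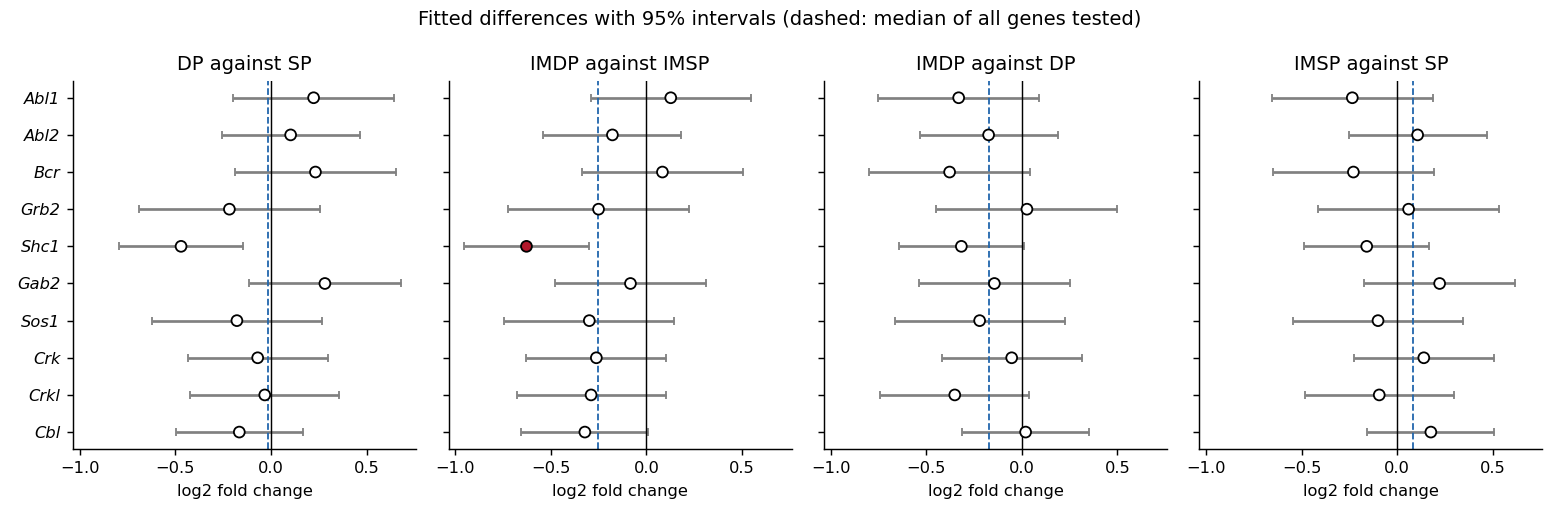
Fitted log2 fold changes (horizontal axes) of the 10 genes in the 4 pairwise comparisons, with 95% intervals from limma. Filled points passed an adjusted p of 0.05, and the dashed line is the median of all genes tested. Shc1 in IMDP against IMSP, at -0.63, is the filled point.

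Shc1 lies on chromosome 3 (89418443 to 89430027, plus strand, GRCm38, GENCODE M21), and 59 bases separate its start from that of Cks1b (89415472 to 89418383), a neighbour read from the opposite strand that encodes a cell cycle kinase subunit. Their exons do not overlap. Cks1b is no member of the group and was named after its values were seen. It stood at 18.7 ± 6.11 RPKM in DP and 34.1 ± 3.15 in SP, and at 10.2 ± 2.72 in IMDP and 39.3 ± 1.58 in IMSP (SD, n = 3 each). It was 2.71-fold lower in G0M+ cells averaged over treatments (limma adjusted p = 9.32e-05) and 3.93-fold lower in IMDP than in IMSP (adjusted p = 0.000247), and the average fall passed under both scalings. In DP against SP Cks1b did not pass (-0.91, limma adjusted p = 0.0694), and it did with the block for neighbouring library numbers (adjusted p = 0.0271). In neighbouring library pairs of the same treatment both genes were lower in the G0M+ library in 6 of 6 pairs, with log2 differences of -0.74 to -0.37 for Shc1 and of -2.34 to -0.26 for Cks1b. What the neighbour has to do with the Shc1 level was not tested.

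**Figure D3:**
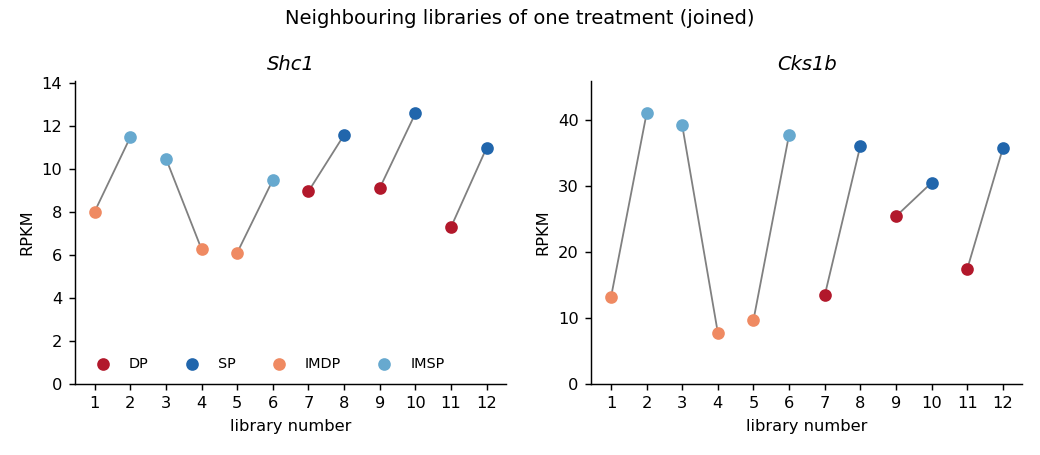
RPKM of Shc1 and of its neighbour Cks1b (vertical axes, from 0) by library number, with neighbouring libraries of the same treatment joined. In each of the 6 pairs the G0M+ library (DP or IMDP) lies below the G0M- library (SP or IMSP).

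Abl1 and Bcr, the mouse counterparts of the fused genes, did not pass the test between stem and progenitor cells. Abl1, a kinase gene on chromosome 2 (31688376 to 31804227, plus strand), stood at 13.7, 18.0 and 13.3 RPKM in DP against 12.3, 12.6 and 13.3 in SP, and 14.1, 11.0 and 10.6 in IMDP against 11.8, 13.2 and 8.13 in IMSP. DP replicate 2 was the highest library and IMSP replicate 3 the lowest. The lowest DP library (13.33 RPKM) lay just above the highest SP library (13.32), and IMDP and IMSP overlapped. An antisense gene, Gm13427, shares exonic bases with Abl1, and reads of the pair cannot be told apart here. Bcr, whose protein carries GTPase-regulating domains, lies on chromosome 10 (75060592 to 75184921, plus strand). It stood at 13.6, 12.8 and 9.40 RPKM in DP against 9.85, 11.1 and 9.23 in SP, and 11.6, 7.75 and 8.28 in IMDP against 10.1, 7.84 and 7.83 in IMSP. Bcr levels overlapped between the populations under both treatments.

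The fitted difference between DP and SP was 0.22 (SE 0.19, limma adjusted p = 0.631) for Abl1 and 0.23 (SE 0.19, adjusted p = 0.616) for Bcr. Between IMDP and IMSP it was 0.13 (SE 0.19, adjusted p = 0.650) for Abl1 and 0.08 (SE 0.19, adjusted p = 0.772) for Bcr. Averaged over treatments it was 0.18 (SE 0.14, adjusted p = 0.348) for Abl1 and 0.16 (SE 0.14, adjusted p = 0.397) for Bcr in limma, whose intervals ran from -0.12 to 0.47 and from -0.14 to 0.45. Both calls depended on the scaling. With every library scaled to the same sum of RPKM, Abl1 passed as higher in G0M+ cells (0.42, adjusted p = 0.0301) and so did Bcr (0.40, adjusted p = 0.0105), whereas with the same median the differences were 0.33 (adjusted p = 0.0569) and 0.32 (adjusted p = 0.0588). Bcr was then also the gene that passed in IMDP against IMSP (0.50, adjusted p = 0.0243, same sum). With the same sum, 1494 of the 10072 genes tested passed as higher in G0M+ against G0M- cells, and 965 in IMDP against IMSP.

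**Figure D4:**
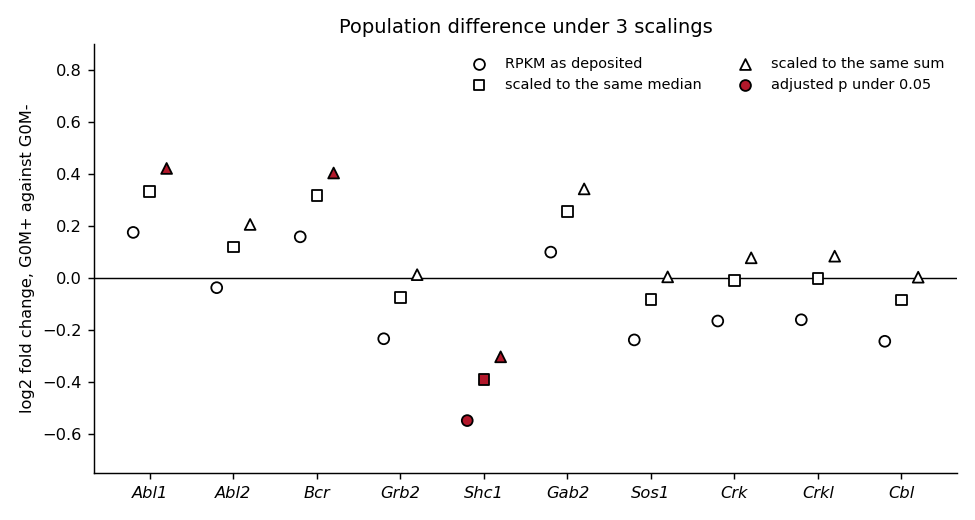
Log2 fold changes of the 10 genes in G0M+ against G0M- cells, averaged over treatments, as deposited and with the libraries scaled to the same median or sum. Filled symbols passed an adjusted p of 0.05: Shc1 under all 3 scalings, and Abl1 and Bcr only with the same sum (0.42 and 0.40). For Abl2, Grb2, Sos1, Crk, Crkl and Cbl the sign depends on the scaling.

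Abl1 and Bcr were fitted lower under imatinib, and neither passed the test. In IMDP against DP the fitted difference was -0.33 (SE 0.19, limma adjusted p = 0.357) for Abl1 and -0.38 (SE 0.19, adjusted p = 0.293) for Bcr. In IMSP against SP it was -0.23 (SE 0.19, adjusted p = 0.790) for Abl1 and -0.23 (SE 0.19, adjusted p = 0.799) for Bcr. Averaged over populations, the difference was -0.28 (SE 0.14, adjusted p = 0.302) for Abl1 and -0.30 (SE 0.14, adjusted p = 0.271) for Bcr in limma. With every library scaled to the same sum of RPKM, the difference in IMDP against DP was -0.03 for Abl1 and -0.08 for Bcr, and with the same median it was -0.18 and -0.23. The average over populations was -0.16 for Abl1 and -0.18 for Bcr with the same sum. As deposited, the interaction was -0.10 (SE 0.27, adjusted p = 0.927) for Abl1 and -0.15 (SE 0.27, adjusted p = 0.878) for Bcr.

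In the comparisons of imatinib with vehicle, limma called 0 of the 10 genes, with 0.367% of all genes called in IMDP against DP, 0% in IMSP against SP and 0.854% averaged over populations. The unadjusted p was under 0.05 for 0 of the 10 in IMDP against DP (20.5% of all genes), for 0 in IMSP against SP (8.39%), and for 2 averaged over populations (18%), which were Bcr at 0.0457 and Shc1 at 0.0440. The interaction called 0 of the 10 and 0% of all genes, with an unadjusted p under 0.05 for 0 of the 10 and for 9.3% of all genes. Limma-voom on recovered reads called 0 of the 10 in each of these comparisons.

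The ratio of Abl1 to Bcr does not depend on how libraries are scaled. Per length it was 1.28 ± 0.23 in DP against 1.28 ± 0.15 in SP, and 1.31 ± 0.11 in IMDP against 1.29 ± 0.34 in IMSP (SD, n = 3 each), with single libraries between 1.01 and 1.69. The group means differed by less than the SD within any group. Across the 12 libraries the log2 levels of Abl1 and Bcr had a Pearson r of 0.69, and Bcr ranked as the 427th most similar gene to Abl1. The genes most like Abl1 were Cnot7, Sfn, Nedd4 and Bcl2l1 (r = 0.92 each) and Osbpl9 (0.91). Those most like Bcr were Clk4 (0.87), Xlr4c (0.87), Xlr4a (0.86), Hba-a1 (0.86) and Slc15a2 (0.85). These correlations describe 12 libraries that share their groups and their differences in depth.

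Abl2, the other ABL-family kinase, on chromosome 1 (156558786 to 156649568, plus strand), stood at 4.38, 5.27 and 5.99 RPKM in DP against 5.04, 4.26 and 5.17 in SP, and 4.87, 3.72 and 5.27 in IMDP against 5.17, 5.38 and 5.01 in IMSP. Its levels overlapped between the groups of each pairwise comparison. Abl1 took the larger share of the family, 74.1% ± 4.48 of their summed RPKM in DP against 72.6% ± 1.94 in SP, and 72.0% ± 4.45 in IMDP against 67.5% ± 4.93 in IMSP (SD, n = 3 each). The share was 3.00 points higher in G0M+ cells (exact permutation p = 0.22, adjusted p = 0.367 over 10 share tests) and 3.60 points lower under imatinib (-3.60, exact permutation p = 0.165, adjusted p = 0.33).

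Grb2, the adaptor at the center of the complex, lies on chromosome 11 (115644045 to 115708597, minus strand). It stood at 14.7, 10.6 and 15.7 RPKM in DP against 18.9, 16.5 and 12.4 in SP, and 17.4, 10.4 and 14.4 in IMDP against 17.2, 16.6 and 15.3 in IMSP. The lowest libraries were IMDP replicate 2 and DP replicate 2, and the populations overlapped. Gab2, the scaffold that carries PI3K and the phosphatase SHP2, on chromosome 7 (97081586 to 97308946, plus strand), stood at 6.69, 4.63 and 4.83 RPKM in DP against 4.30, 4.81 and 3.98 in SP, and 4.14, 4.64 and 5.75 in IMDP against 4.83, 4.61 and 5.91 in IMSP. Sos1, the exchange factor that loads RAS with GTP, on chromosome 17 (80393751 to 80480453, minus strand), stood at 4.80, 3.84 and 4.52 RPKM in DP against 5.25, 5.12 and 4.52 in SP, and 4.16, 4.07 and 3.08 in IMDP against 4.50, 6.24 and 3.49 in IMSP. Sos1 was lower in the G0M+ library in 6 of 6 neighbouring pairs, but its mean difference was small (-0.24, SE 0.14 and limma adjusted p = 0.229 averaged over treatments) and was 0.0041 with the libraries scaled to the same sum.

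The relatives of these adaptors set the context. Gab1 stayed between 0.16 and 1.18 RPKM and Gab3 between 0.16 and 0.78, so Gab2 made up 81.0% ± 7.10 of the family in DP against 85.8% ± 4.99 in SP, and 76.5% ± 3.23 in IMDP against 85.6% ± 6.90 in IMSP (SD, n = 3 each). Its share was 7.00 points lower in G0M+ cells (-7.00, exact permutation p = 0.07, adjusted p = 0.233). Sos1 and its paralog Sos2 were expressed about equally, with Sos1 at 45.8% ± 4.20 of their sum in DP against 50.0% ± 4.46 in SP, and 44.7% ± 6.72 in IMDP against 51.3% ± 8.17 in IMSP, a difference of -5.42 points between the populations (exact permutation p = 0.15, adjusted p = 0.33). This test did not use the neighbouring library pairs, and the Sos1 share was lower in the G0M+ library in 6 of 6 of them. An exact permutation of signs within the pairs, chosen after the data were seen, gave p = 0.0312, the smallest that 6 pairs allow, and an adjusted p = 0.0781 over the 5 shares. For Gab2 the share was lower in 5 of 6 pairs (exact permutation p = 0.0625, adjusted p = 0.104). Of the other SHC genes, Shc2, Shc3 and Shc4 reached at most 0.02, 0.05 and 0.18 RPKM in any library, so Shc1 was the SHC gene with RNA above 1 RPKM in these cells.

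**Figure D5:**
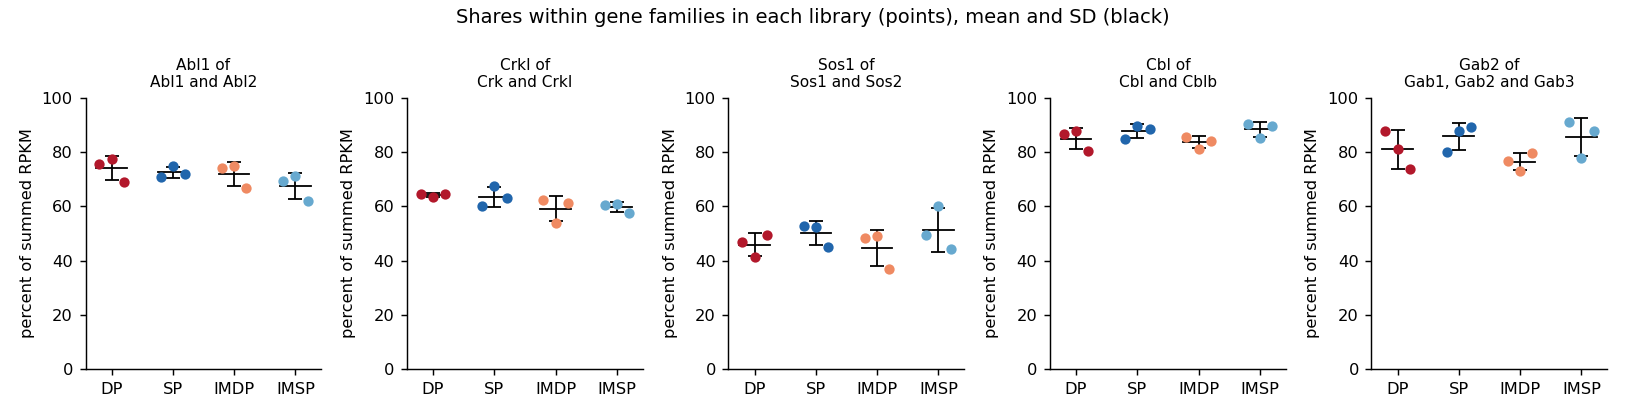
Share of the first-named gene in the summed RPKM of its family (percent, vertical axes from 0 to 100) in each library, with the group mean and SD in black. Abl1, Crkl, Cbl and Gab2 hold the larger part of their families in each library, and Sos1 and Sos2 are near parity. No share passed the permutation test after adjustment, and the neighbouring pairs are not drawn.

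Crk and Crkl, adaptors of SH2 and SH3 domains, lie on chromosomes 11 (75679259 to 75706908) and 16 (17451987 to 17487434), both on the plus strand. CRKL is a prominent substrate of BCR-ABL1, and its phosphorylation is used to follow the kinase in patients. Crkl stood at 8.05, 7.77 and 8.19 RPKM in DP against 7.58, 8.31 and 8.71 in SP, and 7.66, 5.55 and 5.75 in IMDP against 7.32, 9.89 and 6.21 in IMSP. Each IMDP library was below each DP library, with a fitted difference of -0.35 (SE 0.18, limma adjusted p = 0.293). How many of all genes showed no overlap there is not given here. Crk stood at 4.42, 4.49 and 4.53 RPKM in DP against 5.07, 4.00 and 5.14 in SP, and 4.63, 4.78 and 3.62 in IMDP against 4.81, 6.33 and 4.58 in IMSP. Crk was tight in DP and spread wider elsewhere, with overlap in each pairwise comparison.

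The share of Crkl in the pair was 64.1% ± 0.64 in DP and 63.5% ± 3.82 in SP, and 59.1% ± 4.71 in IMDP and 59.6% ± 1.82 in IMSP (SD, n = 3 each). It was 4.41 points lower under imatinib (-4.41, exact permutation p = 0.015, two-sided, where 0.005 is the smallest p the 400 assignments allow). After adjustment over the 10 share tests this did not pass (p = 0.15 by the exact permutation test). Between the populations the share differed by 0.09 points (exact permutation p = 0.975).

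Cbl, the ubiquitin ligase, lies on chromosome 9 (44142976 to 44234049, minus strand). It stood at 13.5, 15.3 and 13.4 RPKM in DP against 15.4, 17.1 and 14.8 in SP, and 17.3, 11.7 and 14.2 in IMDP against 19.3, 16.0 and 18.3 in IMSP. IMDP replicate 1 reached into the range of IMSP. The fitted difference averaged over treatments was -0.24 (SE 0.11, limma adjusted p = 0.109). It passed without IMDP replicate 1 (-0.31, adjusted p = 0.0318) and was 0.0029 with the libraries scaled to the same sum. With the block for neighbouring library numbers it passed in limma (adjusted p = 0.0343). So did the difference between IMDP and IMSP (-0.32, adjusted p = 0.0465 with that block and 0.136 without it). Cbl made up 85.0% ± 3.97 of the sum of Cbl and Cblb in DP against 87.8% ± 2.50 in SP, and 83.6% ± 2.18 in IMDP against 88.5% ± 2.77 in IMSP, a difference of -3.81 points between G0M+ and G0M- cells (exact permutation p = 0.05, adjusted p = 0.233). The share was lower in the G0M+ library in 6 of 6 neighbouring pairs (exact permutation of signs p = 0.0312, adjusted p = 0.0781).

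Around the 10 genes, 63 genes of 8 lists of regulators, partners and downstream steps were followed, of which 51 passed the filter on low values. Averaged over treatments, 3 of the 51 passed as lower in G0M+ cells and 0 as higher, beside 21% and 5.32% of all genes. They were Hras, a RAS GTPase (log2 fold change -0.56), Ptpn6, the phosphatase SHP1 (-0.24), and Rapgef1, an exchange factor that binds CRK (-0.40). Between IMDP and IMSP 8 of the 51 passed as lower and 0 as higher, beside 23.3% and 2.37% of all genes. These were Hras (-0.90), Ptpn6 (-0.41), Rapgef1 (-0.49), Map2k1 (-0.48) and Map2k2 (-0.48), which encode the MEK kinases, the SRC-family kinase Lyn (-0.53), Ptpn11, which encodes SHP2 (-0.47), and Rac1 (-0.49). The list of the RAS cascade held 3 of these 8, of 11 genes tested, a share close to the 23.3% of all genes. In DP against SP, in both comparisons of imatinib with vehicle and in their average, limma and limma-voom called 0 of the 51. Of all genes, limma called 2.26% in DP against SP, 0.367% in IMDP against DP, 0% in IMSP against SP and 0.854% in the average. The unadjusted limma p was under 0.05 for 0 of the 51 in DP against SP (13.2% of all genes). It was under 0.05 for 6 in IMDP against DP (20.5%), 3 in IMSP against SP (8.39%) and 3 in the average (18%).

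When each library was left out in turn, Rapgef1 passed in 12 of 12 fits averaged over treatments, Hras in 5 and Ptpn6 in 2, and with the replicate block Ptpn6 had an adjusted p of 0.0506. Between IMDP and IMSP, Hras passed in 10 of the 12 fits, Lyn in 9, and Map2k1, Ptpn6 and Rapgef1 in 8 each. Ptpn11 passed in 7, Map2k2 in 5 and Rac1 in 3. None of these downstream calls held under the other scalings. With the same median, 0 of the 51 passed as lower and 4 as higher in G0M+ cells (Jak2, Nck2, Pik3r1 and Ubash3b). Of all 10072 genes tested, 1244 passed as lower and 1116 as higher there. With the same sum, 0 of the 51 passed as lower and 8 as higher (the same 4 with Dok2, Inpp5d, Nedd9 and Pxn). Of all genes, 896 and 1494 did. Between IMDP and IMSP 0 of the 51 passed as lower under either scaling. As higher, 2 of them passed with the same median (634 of all genes) and 4 with the same sum (965). Of all genes, 925 (same median) and 618 (same sum) passed as lower. Among all genes called in G0M+ against G0M- cells, 79.8% were lower as deposited, 52.7% with the same median and 37.5% with the same sum. Between IMDP and IMSP the lower share was 90.7% as deposited, 59.3% with the same median and 39% with the same sum.

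Some markers of other cells differed between the populations. Averaged over treatments, limma called 4 of 7 mast cell and basophil markers tested as higher in G0M+ cells, beside 5.32% of all genes. It called 3 of 4 macrophage, 1 of 3 erythroid, 0 of 1 neutrophil and 0 of 1 B and T cell markers tested. In DP against SP it called 2 of the 7 mast cell and basophil markers and 0 of the others. Summed mast cell and basophil markers (7 genes) reached 80.1 to 287 RPKM in DP and 25.4 to 172 in IMDP, beside 20.1 to 21.6 in SP and 16.1 to 26.4 in IMSP, with Cma1 at 0 in SP and in IMSP and Prss34 at 0 in IMSP. Macrophage markers (6 genes) summed to 3.34 to 13.2 RPKM in DP and 10.1 to 13.6 in IMDP, beside 2.06 to 4.57 in SP and 3.05 to 8.89 in IMSP, with C1qa, C1qb and C1qc at 0 in both G0M- groups. The macrophage marker Cd68 had means of 2.7 RPKM in DP against 2.6 in SP and of 4.5 in IMDP against 4.7 in IMSP. Erythroid markers (5 genes) summed to 194 to 245 RPKM in DP against 49.3 to 144 in SP, and 56.8 to 220 in IMDP against 9.43 to 71.6 in IMSP. Klf1 among them had means of 2.30 RPKM in DP against 1.17 in SP and of 0.26 in IMDP against 0.39 in IMSP. Neutrophil markers (5 genes) stayed between 0.20 and 40.8 RPKM and B and T cell markers (6 genes) between 1.48 and 5.09. The neutrophil marker S100a8 had means of 7.01 RPKM in DP against 20.2 in SP and of 0.71 in IMDP against 1.87 in IMSP. The part of these cells in the Shc1 difference was not tested, and fewer cells of a type cannot be told apart from less RNA per cell in libraries of this kind.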

How the data were processed

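RNA of sorted cells was measured in 12 libraries. Reads were mapped to GRCm38/mm10 by the authors, who name CLC Genomics Workbench in the methods and HISAT2 and featureCounts in the reporting summary, and edgeR for statistics. The deposited values are RPKM, with a value per feature and library for 48737 features. Whether a further normalization is part of them is not given in the sources used here. The RPKM of a feature stand in whole-number ratios within a tolerance of 0.02, so the reads behind them were recovered for all 17735 features above 0. On simulated data 95.8% of 2916 features were recovered. Limma's intervals measure the spread between libraries. Whether PCR copies were removed is not given in the sources used here.

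The main test was limma 3.58.1 (R 4.3.3) on log2(RPKM + 0.1), a scale that understates changes of low genes, with 4 group means, a variance that follows the mean and Benjamini-Hochberg adjustment over the 10072 genes that reached 1 RPKM in 3 or more libraries (threshold 0.05). A count test was not the main test because RPKM are not counts. In simulated data the G0M+ against G0M- contrast recovered 87% of genes changed 2-fold and 100% of those changed 4-fold over 9840 genes, with 6.03% of its calls false. Shares within families were tested by two-sided exact permutation of libraries within the other factor. Gene positions and sequences came from GENCODE M21. Figures were drawn with matplotlib 3.10.9, and tables were made with pandas 2.3.3 and numpy 2.4.6 under Python 3.11.15.

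The 10 genes and the lists around them were chosen with earlier results of these data known, and 1 gene of the lists is not reported here. The text names all 10 genes, gives Abl1 and Bcr in each contrast and other members where they passed, up to 4 called genes per list with the smallest adjusted p, and the 5 genes most correlated with Abl1 and with Bcr. The other members are given by their levels, with a fitted difference for Crkl, Sos1 and Cbl chosen after their values were seen. Alternatives changed the pseudocount (1 or 0.01), the filter, the scaling, the groups fitted, numbered copies, the library left out and the block, or used limma-voom on the recovered reads. Sign flips within neighbouring library pairs were added for the shares after the data were seen. Directions within these pairs were counted for named genes and shares, and are not given over all genes. Same-numbered IMDP and IMSP libraries deviated together (correlations of 0.43, 0.65 and 0.46). They are also neighbours in library number, so the 2 numberings cannot be told apart for them. The other same-numbered groups were not paired by this check (DP and SP -0.19, -0.30 and -0.10, IMDP and DP 0.20, 0.09 and 0.10, IMSP and SP -0.23, -0.40 and -0.26), whereas libraries of neighbouring number were (0.50 to 0.52 for DP and SP).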

Additional observations from a re-analysis of the deposited data

How the results depend on the processing

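Of the 10 genes, 1 passed in G0M+ against G0M- cells, beside 2648 of all 10072 genes tested. With the same sum of RPKM 3 passed (Abl1, Bcr and Shc1), beside 2390 of all genes, of which 1494 were higher. With a block of neighbouring library numbers 2 passed (Cbl and Shc1), beside 4721. In IMDP against IMSP 1 of the 10 passed, 0 with the same median and 2 with that library-number block, and with the same sum the single call was Bcr in place of Shc1. In DP against SP 0 of the 10 passed, and 1 with that block (Shc1, adjusted p = 0.0290). The cause was not tested. With the replicate block, 1 passed in G0M+ against G0M- (Shc1, adjusted p = 0.00427) and 1 in IMDP against IMSP (Shc1, adjusted p = 0.0107). The replicate block changed no call of the 10 genes, and of the listed partners Ptpn6 no longer passed with it in G0M+ against G0M- (adjusted p = 0.0506). Leaving out each library in turn gave 0 to 2 of the 10 in IMDP against IMSP and 1 to 2 in G0M+ against G0M-, with 2 without IMDP replicate 1 in both (Cbl and Shc1) and 0 without IMSP replicate 1 in IMDP against IMSP.

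Of the 10 genes, 8 were fitted lower in IMDP against IMSP as deposited, 4 with the same median and 1 with the same sum. In G0M+ against G0M- 7, 6 and 1 were. The interaction became 0.14 (same median) and 0.26 (same sum) for Abl1, and 0.086 and 0.20 for Bcr. With the same sum Ptpn6 became 0.015 in IMDP against IMSP, and 0.0085 in G0M+ against G0M-. With libraries left out in turn, the fold change in IMDP against IMSP ran from -0.076 to 0.27 for Abl1 and from -0.091 to 0.21 for Bcr, and the Abl1 interaction from -0.30 to 0.048. The share of Crkl ran from -0.78 to 1.45 points between the populations, and under imatinib that of Sos1 from -2.10 to 2.07 and that of Cbl from -1.45 to 0.48.

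Genes called over the whole table also moved. In DP against SP 228 became 980 with the library-number block and 125 to 264 with libraries left out. In IMDP against IMSP 2581 became 4446 with that block, 1559 with the same median, 1583 with the same sum and 1553 with only the 2 groups fitted, and 902 to 2962 with libraries left out (902 without IMSP replicate 1, 1178 and 1556 without IMDP replicates 2 and 3). In G0M+ against G0M- 2648 became 4721 with the block and 1583 to 3061 with libraries left out (1583 and 1741 without DP replicates 3 and 2, 1607 without IMSP replicate 1). In IMDP against DP 37 became 2 with the same median, 14 with the same sum, 8 with limma-voom, 0 with only the 2 groups fitted, and 0 to 189 with libraries left out. Averaged over populations, 86 became 46 without the filter, 162 with the same median, 246 with the same sum and 12 to 143 with libraries left out.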
